A study of Homo sapiens with 9 samples.

Results

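The 10 genes described here encode chaperones and quality-control factors of the endoplasmic reticulum, together with the stress sensor ERN1 and its transcription factor target XBP1. They were picked by gene symbol, with earlier results of these data known. All 10 were found among the 60612 annotated genes, and all 10 were among the 16990 genes with enough counts to be tested. RNA came from HSC-3, an established human oral squamous carcinoma line, in 3 groups of 3 libraries each, named MPTN, MPTN24 and WT. The series describes an apatinib-resistant line made by keeping cells with the drug until they resisted it, cells given apatinib for 24 h, and the WT line. The labels leave these names unexplained. Reading MPTN24 as the 24 h exposure rests on the number in the name, and MPTN is then the resistant line. A library is written as its group and replicate number, so MPTN 3 is the third library of MPTN. Apatinib is an oral kinase inhibitor aimed mainly at the VEGF receptor KDR. Its dose, the length of the selection, whether the resistant line was a clone or a pool, and whether the drug was present when MPTN cells were collected are not given in the sources used here.

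The endoplasmic reticulum folds secreted and membrane proteins. When unfolded proteins build up there, 3 membrane sensors, ERN1 (also called IRE1), ATF6 and EIF2AK3 (PERK), start the unfolded protein response. Active ERN1 cuts a short intron out of XBP1 messenger RNA in the cytoplasm, and the joined message encodes a strong transcription factor for degradation and folding genes, while cleaved ATF6 acts on many of the same chaperone promoters. Carcinoma cells use this response to sustain secretion and growth under stress.

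The sequence below shows why the deposited gene counts cannot report on XBP1 processing. The intron that ERN1 removes is 26 bases long, is annotated at chr22:28796124-28796149 (GRCh38, minus strand, inside the fourth exon of the uncut coding transcript in GENCODE 29) and is in capitals, with 20 bases of coding sequence on each side. Another annotated transcript sets both ends of the intron 2 bases further along the message, which gives the same joined sequence.
XBP1 intron: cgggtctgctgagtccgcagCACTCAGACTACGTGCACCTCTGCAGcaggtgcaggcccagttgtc
Both forms are counted under the same gene, so XBP1 values here are the sum of the 2 forms and the share of the joined form was not analysed here.

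The promoters of the 10 genes were searched for 3 elements of the unfolded protein response on both strands, in RefSeq windows (GRCh38.p14) that run from 250 bases before to 50 bases after a gene's start. They were the stress element ERSE (CCAAT, then 9 bases of any kind, then CCACG), ERSE-II (ATTGG, then 1 base of any kind, then CCACG) and an XBP1-type element (TGACGTGN). No match of one overlapped a match of another in these genes. ERSE was found in 4 of the 10 genes (HSPA5, HSP90B1, CALR and XBP1), and in 0.0916% of all 27305 genes with such windows. ERSE-II was found in 2 (HERPUD1 and SDF2L1), and in 0.0696% of all genes with windows. The XBP1-type element was found in 0 of the 10 and in 2.39% of all genes with windows. DNAJB9, EDEM1, ERN1 and PDIA4 held none of the 3 in these windows. The stretches of 80 bases upstream of the RefSeq start printed here set genes that rose in MPTN (XBP1, HERPUD1 and DNAJB9) beside genes that did not pass the test (HSPA5 and HSP90B1). Capitals mark the matched element, and DNAJB9 is shown as the stretch next to its start with no match.
XBP1, chr22:28800573-28800652, minus strand: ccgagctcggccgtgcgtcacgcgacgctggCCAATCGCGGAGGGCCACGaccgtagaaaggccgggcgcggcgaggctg
HERPUD1, chr16:56931990-56932069, plus strand: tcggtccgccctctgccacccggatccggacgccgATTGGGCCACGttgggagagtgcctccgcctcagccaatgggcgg
DNAJB9, chr7:108569794-108569873, plus strand: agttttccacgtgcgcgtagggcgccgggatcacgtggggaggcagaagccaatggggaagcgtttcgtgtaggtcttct
HSPA5, chr9:125241361-125241440, minus strand: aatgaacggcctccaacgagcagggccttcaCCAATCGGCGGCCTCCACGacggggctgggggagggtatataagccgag
HSP90B1, chr12:103930185-103930264, plus strand: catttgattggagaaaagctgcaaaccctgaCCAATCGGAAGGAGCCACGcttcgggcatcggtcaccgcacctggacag

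Total counts per library lay between 60383313 and 98890929, and the largest totals were in MPTN 3 and WT 3. All 11 markers of squamous epithelium were detected, with summed levels of 15600 to 17300 CPM (counts scaled to library size) in MPTN, 15200 to 16500 CPM in MPTN24 and 15400 to 20700 CPM in WT. The leukocyte genes PTPRC, CD3E, TYROBP and NKG7, the plasma cell gene JCHAIN and the endothelial gene KDR had 0 counts in all 9 libraries. Of the other leukocyte markers, LYZ and CD79A averaged at most 0.0618 CPM in any group, and CD68, a lysosomal protein that is not limited to leukocytes, was at 77.3 ± 3.9 CPM in MPTN, 110 ± 8 CPM in MPTN24 and 70.6 ± 11 CPM in WT (mean ± SD, n = 3). CD68 rose 1.56-fold in MPTN24 against WT (edgeR adjusted p = 0.0015). SDC1, a plasma cell marker that epithelia also make, was at 742 ± 37 CPM in MPTN, 859 ± 63 CPM in MPTN24 and 648 ± 150 CPM in WT, and rose 1.32-fold in MPTN24 against WT (edgeR adjusted p = 0.045). The summed fibroblast markers, mostly COL1A1, lay at 11.5 to 12 CPM in MPTN, 12.3 to 14.8 CPM in MPTN24 and 10.5 to 19.2 CPM in WT. The part of these markers in the results was not tested. Mitochondrially encoded transcripts took 4.66% to 5.13% of counts in MPTN, 5.04% to 5.73% in MPTN24 and 4.74% in WT 1, against 2.72% and 3.02% in WT 2 and WT 3. WT 1 stood apart from the other WT libraries, and each call of the 10 genes that changed without it is given with and without it. Over 3747 abundant genes the robust SD of its log2 ratio to WT 2 and WT 3 was 0.299 and 0.275, against 0.156 between those. MPTN 3 also stood apart, at 0.285 and 0.242 to MPTN 1 and MPTN 2, against 0.082 between those. The count of the 10 genes that rose in MPTN against WT was 5 with and without MPTN 3. The labels do not say whether the 3 libraries of a group came from separate cultures, so p-values measure only the spread between these samples, which may be technical. In bulk RNA, fewer cells expressing a gene and less RNA per cell cannot be told apart.

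In MPTN, 5 of the 10 genes rose against WT. They were ERN1, XBP1, DNAJB9, HERPUD1 and EDEM1, that is the sensor, its target transcription factor, a co-chaperone and both degradation factors. Their folds lay between 1.43 for EDEM1 and 1.95 for ERN1. The 5 that did not pass were the abundant chaperones HSPA5, HSP90B1 and CALR, the disulfide isomerase PDIA4 and the co-chaperone SDF2L1, with folds of 0.857 to 0.972. Over all tested genes 18.3% rose and 18.1% fell in this comparison, by edgeR's quasi-likelihood test at an adjusted p below 0.05. None of the 10 fell by edgeR (0 also at an unadjusted p below 0.05), DESeq2 (1 at an unadjusted p below 0.05) or limma. The 10 genes had a median log2 change of 0.24, against 0.02 over all tested genes.

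**Figure D1:**
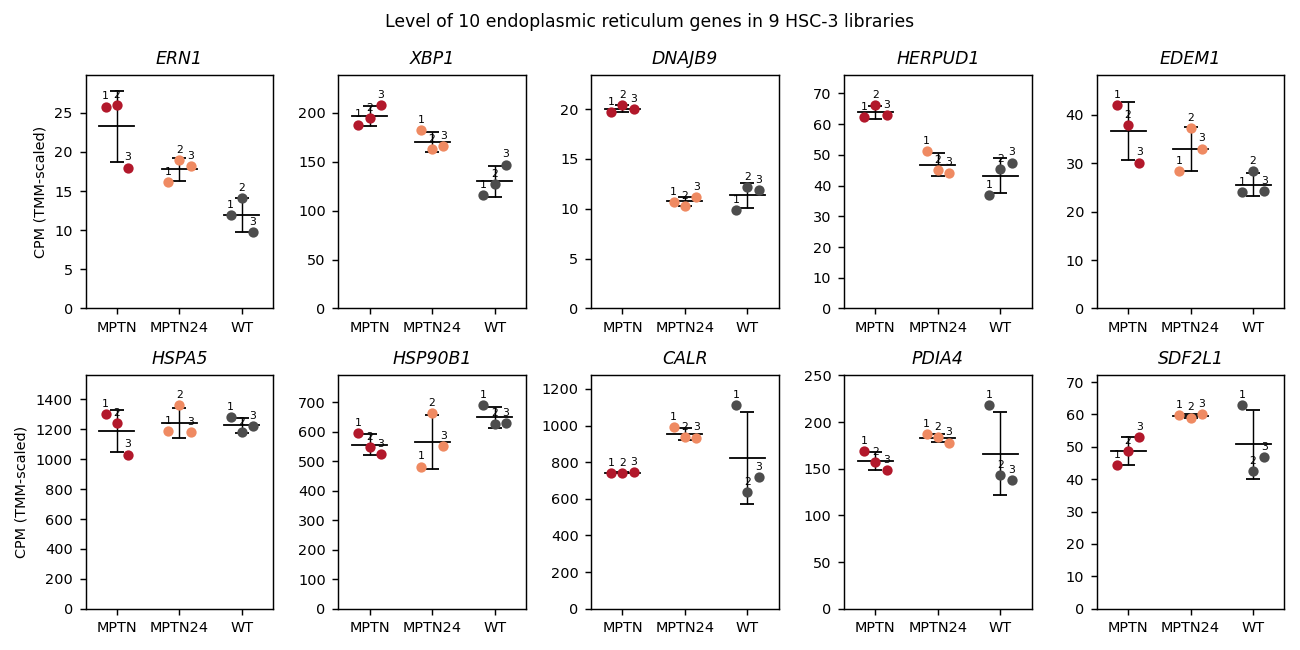
Level of each of the 10 genes (y axis, TMM-scaled CPM, from 0) in MPTN, MPTN24 and WT (x axis). Points are libraries with their replicate numbers, the wide bar is the mean and the error bar the SD of 3 libraries. The top row holds the 5 genes that rose in MPTN, and in each of its panels all 3 MPTN points lie above all 3 WT points, as for 24.8% of all tested genes (22.6% had all MPTN points below).

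In MPTN24 against WT, XBP1 rose 1.31-fold and ERN1 rose 1.49-fold. The other 8 genes did not pass, with folds of 0.871 to 1.29. Over all tested genes 11.1% rose and 12.1% fell, so 2 rises among 10 genes are little above the background. None of the 10 fell by edgeR (0 also unadjusted), DESeq2 or limma. The count of rises was 5 without WT 1 and 1 without MPTN24 1, MPTN24 2, MPTN24 3 or WT 3. Between MPTN and MPTN24, DNAJB9 and HERPUD1 rose, where 7.85% of all tested genes rose and 6.7% fell. None of the 10 fell in that comparison by edgeR or DESeq2 (2 each at an unadjusted p below 0.05) or limma. CALR and SDF2L1 fell by edgeR without WT 1, and also when only MPTN and MPTN24 were fitted (2 falls each). The count of rises was 3 without MPTN 3 and 1 without MPTN 2, MPTN24 2 or MPTN24 3. All MPTN24 libraries lay above all WT libraries for 2 of the 10 genes and below for 0 (18.7% and 19.2% of all tested genes). MPTN libraries lay wholly above MPTN24 for 3 and wholly below for 3 (19.7% and 18.1% of all tested genes). The 3 comparisons share libraries, so their values are set side by side and are not independent of each other.

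**Figure D2:**
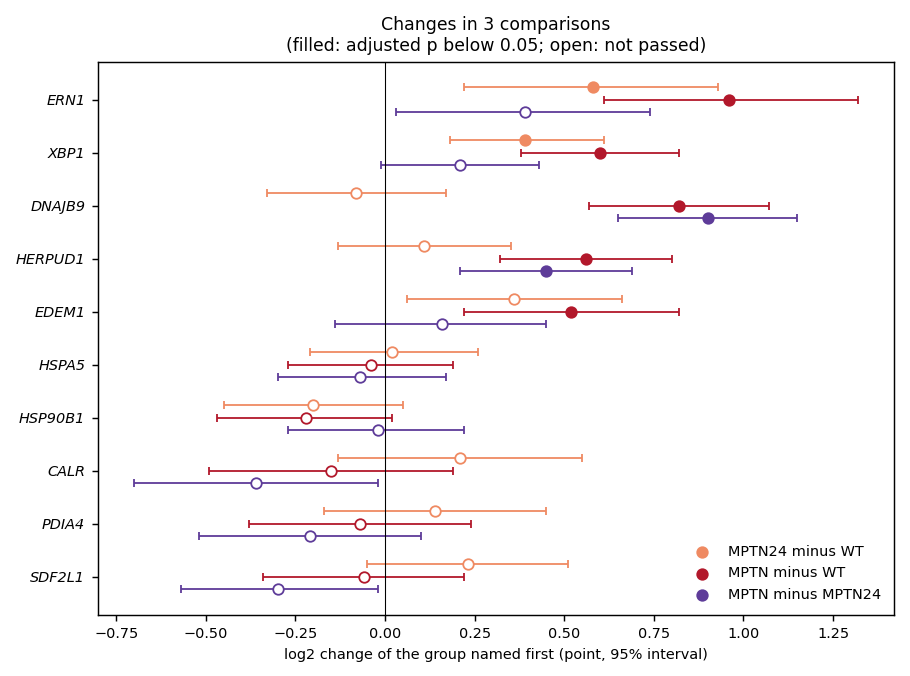
Log2 change of each gene (x axis) in the 3 comparisons, with the edgeR estimate as a point and its 95% interval as a bar. Filled points had an adjusted p below 0.05. DNAJB9 and HERPUD1 are filled in both comparisons of MPTN and open in MPTN24 minus WT, while XBP1 and ERN1 are filled in both comparisons with WT.

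ERN1 (ENSG00000178607, chromosome 17, 64039142 to 64130819, minus strand) encodes the sensor itself, a membrane kinase with an RNA-cutting domain. It was at 25.8, 26 and 18 CPM in MPTN, 16.1, 19 and 18.2 CPM in MPTN24, and 11.9, 14.1 and 9.74 CPM in WT. All 6 MPTN and MPTN24 libraries lay above all 3 WT libraries, but MPTN 3 fell within the range of MPTN24. ERN1 rose 1.95-fold in MPTN against WT (log2 change 0.96 ± 0.17, SE, edgeR adjusted p = 0.00049) and 1.49-fold in MPTN24 against WT (log2 change 0.58 ± 0.17, edgeR adjusted p = 0.023). The 24 h call was lost without MPTN24 2 (edgeR adjusted p = 0.06), MPTN24 3 (0.074) or WT 3 (0.089). Under limma it did not pass either, whether 0.1 (log2 change 0.48, adjusted p = 0.1) or 1 (0.33, adjusted p = 0.12) was added to FPKM before taking logs. Between MPTN and MPTN24 the log2 change was 0.39 (95% interval 0.03 to 0.74, edgeR adjusted p = 0.14), and without MPTN 3 it was 0.54 (edgeR adjusted p = 0.04).

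XBP1 (ENSG00000100219, chromosome 22, 28794555 to 28800597, minus strand) was at 188, 195 and 208 CPM in MPTN, 182, 163 and 166 CPM in MPTN24, and 116, 127 and 147 CPM in WT. The groups did not overlap, with MPTN highest and WT lowest. It rose 1.52-fold in MPTN against WT (log2 change 0.6 ± 0.1, SE, edgeR adjusted p = 0.00043), and 1.31-fold in MPTN24 against WT (log2 change 0.39 ± 0.1, edgeR adjusted p = 0.014). The call at 24 h was lost without MPTN24 1 (0.34, edgeR adjusted p = 0.074). The difference between MPTN and MPTN24 did not pass (log2 change 0.21, 95% interval -0.01 to 0.43, edgeR adjusted p = 0.2). XBP1 is also a target of ATF6 and of its own protein in other systems, and its promoter holds the ERSE printed above.

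DNAJB9 (ENSG00000128590, chromosome 7, 108569867 to 108574850, plus strand), also called ERdj4, is a J-domain partner of HSPA5 that holds ERN1 in its inactive form and is a standard readout of the XBP1 branch. It was at 19.7, 20.4 and 20 CPM in MPTN, 10.7, 10.3 and 11.2 CPM in MPTN24, and 9.9, 12.2 and 11.9 CPM in WT. The 3 MPTN libraries were nearly equal and lay far above the other 6, whose ranges overlapped. DNAJB9 rose 1.76-fold in MPTN against WT (log2 change 0.82 ± 0.12, SE, edgeR adjusted p = 0.00013) and 1.87-fold against MPTN24 (log2 change 0.9 ± 0.12, edgeR adjusted p = 0.00026). MPTN24 and WT differed by a log2 change of -0.08 (95% interval -0.33 to 0.17, edgeR adjusted p = 0.68), so a rise of more than 1.13-fold lies outside that interval.

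HERPUD1 (ENSG00000051108, chromosome 16, 56932142 to 56944864, plus strand) is a membrane protein with a ubiquitin-like domain that organises the degradation complex. Its levels were 62.3, 66.2 and 62.9 CPM in MPTN, 51.1, 45 and 44.2 CPM in MPTN24, and 36.8, 45.4 and 47.5 CPM in WT. MPTN lay above the other 2 groups, which overlapped. HERPUD1 rose 1.48-fold in MPTN against WT (log2 change 0.56 ± 0.11, SE, edgeR adjusted p = 0.0013) and 1.37-fold against MPTN24 (log2 change 0.45 ± 0.11, edgeR adjusted p = 0.015). The rise against MPTN24 was lost without MPTN 2 (edgeR adjusted p = 0.067), MPTN24 2 (0.066) or MPTN24 3 (0.079). It did not pass under limma, with 0.1 (adjusted p = 0.11) or 1 (adjusted p = 0.1) added to FPKM. At 24 h the log2 change against WT was 0.11 (95% interval -0.13 to 0.35, edgeR adjusted p = 0.52), and 0.01 without WT 1.

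EDEM1 (ENSG00000134109, chromosome 3, 5187646 to 5219958, plus strand) helps to pick out misfolded glycoproteins for degradation and is a known target of the joined XBP1 form. It was at 42, 37.8 and 30.1 CPM in MPTN, 28.3, 37.3 and 33 CPM in MPTN24, and 24.1, 28.3 and 24.2 CPM in WT. MPTN lay above WT but overlapped with MPTN24, whose range touched that of WT. EDEM1 rose 1.43-fold in MPTN against WT (log2 change 0.52 ± 0.14, SE, edgeR adjusted p = 0.0096), a call lost without MPTN 1 (0.41, edgeR adjusted p = 0.052). The change at 24 h, 0.36 on the log2 scale (95% interval 0.06 to 0.66, edgeR adjusted p = 0.075), passed with upper-quartile scaling (0.42, adjusted p = 0.037) and without MPTN 3 (0.36, adjusted p = 0.045). MPTN and MPTN24 differed by 0.16 (95% interval -0.14 to 0.45, edgeR adjusted p = 0.52).

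HSPA5 (ENSG00000044574, chromosome 9, 125234853 to 125241343, minus strand), known as BiP, is the HSP70 of the endoplasmic reticulum and the classic marker of the unfolded protein response. It was at 1300, 1240 and 1030 CPM in MPTN, 1190, 1360 and 1180 CPM in MPTN24, and 1280, 1180 and 1220 CPM in WT. The 3 groups overlapped, and the lowest and highest libraries were MPTN 3 and MPTN24 2. The log2 change was -0.04 in MPTN against WT (95% interval -0.27 to 0.19, edgeR adjusted p = 0.81) and 0.02 in MPTN24 against WT (95% interval -0.21 to 0.26, edgeR adjusted p = 0.9). On the fold scale the first interval ran from 0.828 to 1.14, so a rise of the size seen for DNAJB9 lies outside it. HSPA5 and DNAJB9 were not tested against each other.

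HSP90B1 (ENSG00000166598, chromosome 12, 103930107 to 103953645, plus strand), known as GRP94, is the HSP90 of this compartment and folds integrins and Toll-like receptors. It was at 595, 549 and 524 CPM in MPTN, 482, 663 and 551 CPM in MPTN24, and 690, 628 and 629 CPM in WT. Every MPTN library lay below every WT library, while MPTN24 overlapped with both. The difference of MPTN from WT did not pass (log2 change -0.22, 95% interval -0.47 to 0.02, edgeR adjusted p = 0.15), nor did that of MPTN24 from WT (log2 change -0.2, 95% interval -0.45 to 0.05, edgeR adjusted p = 0.24). C12orf73 overlaps it on the other strand with 1.43% as many counts. Since the use of strand in counting is not stated, reads of the 2 genes may be mixed.

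CALR (ENSG00000179218, chromosome 19, 12938578 to 12944489, plus strand) encodes calreticulin, a calcium-binding chaperone that holds glycoproteins. Its levels were 739, 742 and 745 CPM in MPTN, 992, 936 and 934 CPM in MPTN24, and 1110, 637 and 720 CPM in WT. MPTN and MPTN24 were each tight and did not overlap, with MPTN24 higher, as for 18.1% of all tested genes. WT 1 was the highest library of all and WT 2 the lowest. None of the 3 comparisons passed, with log2 changes of -0.15 in MPTN against WT (95% interval -0.49 to 0.19, edgeR adjusted p = 0.5), 0.21 in MPTN24 against WT (95% interval -0.13 to 0.55, edgeR adjusted p = 0.37) and -0.36 in MPTN against MPTN24 (95% interval -0.7 to -0.02, edgeR adjusted p = 0.15). Without WT 1 these were 0.13 (edgeR adjusted p = 0.27), 0.49 (edgeR adjusted p = 0.0013) and -0.36 (edgeR adjusted p = 0.0051), so CALR then rose at 24 h and fell in MPTN against MPTN24. Fitting only MPTN and MPTN24 also gave a fall (-0.36, edgeR adjusted p = 0.0062).

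PDIA4 (ENSG00000155660, chromosome 7, 149003062 to 149028662, minus strand), known as ERp72, makes and exchanges disulfide bonds. It was at 169, 157 and 149 CPM in MPTN, 187, 184 and 178 CPM in MPTN24, and 218, 143 and 138 CPM in WT. As for CALR, WT 1 was the highest library and MPTN24 lay above MPTN without overlap. The log2 changes were -0.07 in MPTN against WT (95% interval -0.38 to 0.24, edgeR adjusted p = 0.74) and 0.14 in MPTN24 against WT (95% interval -0.17 to 0.45, edgeR adjusted p = 0.53). Without WT 1 the first was 0.17 (edgeR adjusted p = 0.14) and the second 0.38 (edgeR adjusted p = 0.0053). Between MPTN and MPTN24 the log2 change did not pass, at -0.21 (95% interval -0.52 to 0.1, edgeR adjusted p = 0.37). It did not pass without WT 1 either (-0.21, edgeR adjusted p = 0.067).

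SDF2L1 (ENSG00000128228, chromosome 22, 21642302 to 21644299, plus strand) works with J-domain proteins to keep HSPA5 clients soluble, and is strongly induced by endoplasmic reticulum stress in other systems. It was at 44.3, 48.6 and 53 CPM in MPTN, 59.7, 59 and 60.2 CPM in MPTN24, and 62.8, 42.6 and 46.9 CPM in WT. MPTN24 lay above MPTN without overlap, as for 18.1% of all tested genes, and WT 1 again stood above WT 2 and WT 3. The log2 changes were -0.06 in MPTN against WT (95% interval -0.34 to 0.22, edgeR adjusted p = 0.75), 0.23 in MPTN24 against WT (95% interval -0.05 to 0.51, edgeR adjusted p = 0.22) and -0.3 in MPTN against MPTN24 (95% interval -0.57 to -0.02, edgeR adjusted p = 0.15). Without WT 1 they were 0.12 (edgeR adjusted p = 0.39), 0.41 (edgeR adjusted p = 0.0083) and -0.29 (edgeR adjusted p = 0.032). The last also passed when only MPTN and MPTN24 were fitted (-0.3, edgeR adjusted p = 0.031).

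**Figure D3:**
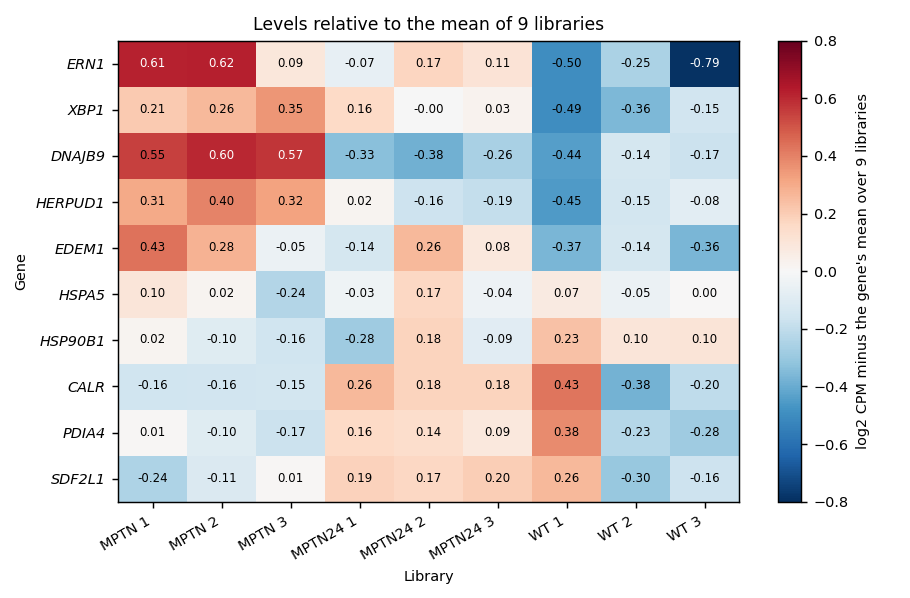
Log2 CPM of each gene (rows) in each library (columns) minus the gene's mean over the 9 libraries, from blue (lower) to red (higher). The DNAJB9 row is at 0.55 to 0.60 in MPTN and below 0 elsewhere, and the WT 1 column is at 0.26 to 0.43 for CALR, PDIA4 and SDF2L1, against -0.16 to -0.38 in the other WT columns.

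Across the 9 libraries several of the genes had like profiles. These are given as descriptions since the libraries share groups and scaling, and the highest r values come first. Pearson's r of log2(CPM + 1) was 0.94 for ERN1 with EDEM1, 0.92 for DNAJB9 with HERPUD1, 0.94 for CALR with SDF2L1 and 0.93 for CALR with PDIA4 (9 libraries each). Without WT 1 these were 0.93, 0.94, 0.94 and 0.89 over 8 libraries. The next highest over 9 libraries were 0.87 for HERPUD1 with XBP1, 0.8 for PDIA4 with SDF2L1, 0.72 for XBP1 with ERN1 and 0.7 for HERPUD1 with ERN1. Without WT 1 these were 0.78, 0.74, 0.66 and 0.63. HSPA5 and HSP90B1 had an r of 0.6 with each other, and HSPA5 had -0.33 with DNAJB9 and -0.32 with XBP1. Without WT 1 these were 0.58, -0.27 and -0.22. The lowest r values were -0.75 for HSP90B1 with XBP1, -0.6 for DNAJB9 with CALR and -0.59 for HSP90B1 with HERPUD1. Without WT 1 they were -0.64, -0.51 and -0.42. ERN1, EDEM1, HSPA5, HSP90B1 and PDIA4 were each lowest in MPTN 3 among the MPTN libraries. DNAJB9, HERPUD1, XBP1, CALR and SDF2L1 were each lowest in MPTN 1.

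Levels differed widely among the 10 genes. On the per-length scale (deposited FPKM, mean ± SD, n = 3) CALR was the highest of the 10, at 371 ± 12 in MPTN, 459 ± 8.4 in MPTN24 and 378 ± 100 in WT, followed by HSPA5 at 287 ± 43 in MPTN, 288 ± 28 in MPTN24 and 272 ± 11 in WT. CALR lay above HSPA5 on this scale in each of the 9 libraries. XBP1, at 102 ± 1.9 FPKM in MPTN, 86.1 ± 6.7 in MPTN24 and 62.1 ± 9.9 in WT, lay between HSP90B1, at 190 ± 18 in MPTN, 186 ± 35 in MPTN24 and 204 ± 6.6 in WT, and SDF2L1, at 55.5 ± 3.1 in MPTN, 65.6 ± 1.6 in MPTN24 and 53.5 ± 9.6 in WT. PDIA4 was close to SDF2L1, at 53.2 ± 5.2 FPKM in MPTN, 59.1 ± 1.1 in MPTN24 and 51.3 ± 12 in WT. The degradation factors and the sensor were far lower. HERPUD1 was at 31.7 ± 0.84 FPKM in MPTN, 23.2 ± 1.7 in MPTN24 and 19.5 ± 5.4 in WT. DNAJB9 was at 7.86 ± 0.27 FPKM in MPTN, 4.04 ± 0.2 in MPTN24 and 4.13 ± 0.58 in WT. EDEM1 was at 5.71 ± 1.1 FPKM in MPTN, 4.96 ± 0.76 in MPTN24 and 3.68 ± 0.39 in WT, and so did not stand apart from DNAJB9 in MPTN24 and WT. ERN1 was the lowest, at 3.73 ± 0.74 FPKM in MPTN, 2.45 ± 0.28 in MPTN24 and 1.74 ± 0.32 in WT. HSPA5, HSP90B1, CALR and PDIA4 made up 86.2% to 88% of the summed CPM of the 10 genes in MPTN, 89.1% to 90.4% in MPTN24 and 90.4% to 92.7% in WT. The 10 genes together took 0.283% to 0.336% of all counts in MPTN, 0.307% to 0.35% in MPTN24 and 0.287% to 0.344% in WT, ranges that overlap.

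The ratio of XBP1 to HSPA5 within a library sets the branch against the chaperone. On the log2 scale of FPKM it was -1.69, -1.55 and -1.21 in MPTN, -1.51, -1.97 and -1.73 in MPTN24, and -2.36, -2.12 and -1.95 in WT. All MPTN values lay above all WT values, and MPTN24 2 overlapped with WT. The ratio of ERN1 to HSPA5 was -6.22, -6.24 and -6.36 in MPTN, -6.96, -6.9 and -6.78 in MPTN24, and -7.41, -6.95 and -7.55 in WT. Here MPTN lay above both other groups, which overlapped. MPTN 3 had the lowest HSPA5 level of the 9 libraries (1030 CPM), and its ERN1 level alone (18 CPM) lay within the range of MPTN24. The ratios were not tested.

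Among 19 other chaperones and co-chaperones of the compartment, 5 rose (26.3%), 1 fell (5.26%) and 13 did not pass in MPTN against WT. The median log2 change was -0.05, and 18.3% of all tested genes rose and 18.1% fell. The nucleotide exchange factor of HSPA5, SIL1, rose 1.55-fold (50 ± 4.4 CPM in MPTN and 32.2 ± 3.9 CPM in WT, mean ± SD, log2 change 0.64 ± 0.11, SE, edgeR adjusted p = 0.00056), and SDF2, the relative of SDF2L1, rose 1.25-fold (edgeR adjusted p = 0.018). CLGN, a lectin chaperone related to calnexin and best known from testis, rose 7.86-fold from a low level (3.05 ± 0.58 CPM in MPTN and 0.384 ± 0.088 CPM in WT, edgeR adjusted p = 3.1e-05). SEC63, a J-domain protein of the translocation channel, fell (log2 change -0.54 ± 0.13, SE, edgeR adjusted p = 0.0055). The count of rises was 2 without WT 2, and that of falls was 0 under limma with 0.1 or 1 added to FPKM. At 24 h only SIL1 of these 19 rose (log2 change 0.51, edgeR adjusted p = 0.0058), where 11.1% of all tested genes rose. Without WT 1, 4 rose.

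Of 24 other disulfide and prolyl isomerases and oxidases, 3 rose (12.5%), 2 fell (8.33%) and 19 did not pass in MPTN against WT. Their median log2 change was -0.03, and 18.3% of all tested genes rose and 18.1% fell. ERO1B, an oxidase that recharges disulfide isomerases, rose 1.79-fold (7.58 ± 0.61 CPM in MPTN and 4.23 ± 0.32 CPM in WT, edgeR adjusted p = 0.0014). FKBP10, a prolyl isomerase for collagen, fell to 5.28 ± 0.16 CPM in MPTN, against 10.1 ± 1.2 CPM in WT (log2 change -0.93 ± 0.14, SE, edgeR adjusted p = 2e-04). Rises numbered 5 without WT 1. Of 20 tested genes of degradation other than HERPUD1 and EDEM1, 3 rose, 3 fell (15% each) and 14 did not pass, with a median of 0.01. OS9 (0.43 ± 0.09), EDEM2 (0.45 ± 0.1) and MAN1B1 (0.45 ± 0.12, log2 change ± SE), which read or trim glycans, rose, while VCP, the ATPase that pulls substrates out of the membrane (-0.51 ± 0.1), its cofactor UFD1 (-0.35 ± 0.09) and the ubiquitin-conjugating enzyme UBE2J1 (-0.36 ± 0.1) fell. EDEM3 (0.06, edgeR adjusted p = 0.75) and ERLEC1 (-0.23, edgeR adjusted p = 0.12) of this list did not pass. Falls in this list numbered 1 under limma, with 0.1 or 1 added to FPKM. Rises numbered 5 without WT 1. Of 31 genes of the translocation channel, N-glycosylation and retrieval, 2 rose (6.45%), 1 fell (3.23%) and 28 did not pass, with a median of -0.02. Rises numbered 0 without MPTN 2, MPTN 3 or MPTN24 3 and 1 without MPTN 1, MPTN24 1, MPTN24 2, WT 2 or WT 3, and falls 0 without MPTN 1, MPTN 2 or MPTN 3 and 2 without WT 2.

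Of 15 tested sensors and regulators other than ERN1 and XBP1, 4 rose, 4 fell (26.7% each) and 7 did not pass in MPTN against WT. Their median log2 change was -0.04, and 18.3% of all tested genes rose and 18.1% fell. ATF6B (193 ± 2 CPM in MPTN and 130 ± 18 CPM in WT, log2 change 0.56 ± 0.1, SE, edgeR adjusted p = 0.00091), a relative of ATF6, and CREB3 (0.48 ± 0.12), a membrane-bound transcription factor, rose most. ATF6 itself rose 1.18-fold (82.1 ± 4.2 CPM in MPTN and 69.6 ± 1 CPM in WT, edgeR adjusted p = 0.039), and EIF2AK3, at 18.2 ± 3.4 CPM in MPTN and 18.3 ± 0.96 CPM in WT, did not pass (-0.01, edgeR adjusted p = 0.97). RTCB, the ligase that rejoins XBP1 RNA (90 ± 4.1 CPM in MPTN and 115 ± 8 CPM in WT, log2 change -0.35 ± 0.09, SE, edgeR adjusted p = 0.0075), and NFYA (-0.64 ± 0.15) and NFYB (-0.56 ± 0.14), subunits of the factor that binds the CCAAT part of ERSE, fell. BLOC1S1, a transcript that active ERN1 is known to degrade, was at 47.9 ± 5.8 CPM in MPTN and 42 ± 4.4 CPM in WT (0.19 on the log2 scale, edgeR adjusted p = 0.22). Rises numbered 2 without MPTN 2 or WT 2, and falls 2 under limma with 0.1 or 1 added to FPKM.

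In the PERK and ATF4 branch, 5 of 11 genes rose (45.5%, against 18.3% of all tested genes), 1 fell and 5 did not pass in MPTN against WT, with a median log2 change of 0.81. CHAC1, which breaks down glutathione, rose 4.52-fold (37.3 ± 5.5 CPM in MPTN and 8.25 ± 0.64 CPM in WT, edgeR adjusted p = 9.7e-08), TRIB3, a pseudokinase induced by ATF4, rose 3.52-fold (edgeR adjusted p = 0.00017), and DDIT3, the transcription factor CHOP, rose 1.76-fold (31.1 ± 3.2 CPM in MPTN and 17.7 ± 1.5 CPM in WT, edgeR adjusted p = 0.0011). PPP1R15B fell (log2 change -0.37 ± 0.11, SE, edgeR adjusted p = 0.019). ATF3, a stress-induced transcription factor, was at 9.03 ± 0.62 CPM in MPTN and 45.7 ± 34 CPM in WT and did not pass (0.198-fold, edgeR adjusted p = 0.055). Falls numbered 0 without MPTN 2, MPTN 3 or WT 2 and 3 without WT 1. They numbered 2 by DESeq2 and 0 under limma with 0.1 or 1 added to FPKM. In MPTN24 against WT, 3 of the 11 rose (CHAC1, TRIB3 and SESN2), 4 fell and 4 did not pass, with a median of 0.16. These are 27.3% and 36.4%, against 11.1% of all tested genes that rose and 12.1% that fell. The falls were of ATF3 (0.0689-fold, edgeR adjusted p = 0.02), PPP1R15A (0.537-fold, 2e-04), ATF5 (0.593-fold, 0.0011) and PPP1R15B (0.773-fold, 0.03). They numbered 2 without MPTN24 1, MPTN24 3 or WT 2, and 2 under limma with 1 added to FPKM.

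Among 16 cytosolic and mitochondrial chaperones, 1 rose, 8 fell and 7 did not pass in MPTN against WT, with a median of -0.4. The falls were 50% of the list, against 18.1% of all tested genes. HSP90AA1, the cytosolic relative of HSP90B1, fell to 1120 ± 72 CPM in MPTN, against 2330 ± 130 CPM in WT (log2 change -1.06 ± 0.1, SE, edgeR adjusted p = 3.7e-06), and HSPA8, a cytosolic relative of HSPA5, fell to 1720 ± 57 CPM in MPTN, against 2430 ± 490 CPM in WT (-0.5 ± 0.13, edgeR adjusted p = 0.0068). In MPTN24 against WT, 9 of these 16 fell by edgeR and by DESeq2 (12.1% of all tested genes fell by edgeR), while 7 fell under limma with 0.1 added to FPKM and 5 with 1 added. None rose in that comparison by edgeR (0 unadjusted), DESeq2 or limma. The single rise in MPTN, of DNAJB1 (0.24 ± 0.08), was lost without MPTN 1, MPTN 2, MPTN24 3 or WT 2. The difference between this list and the 10 genes was not tested.

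**Figure D4:**
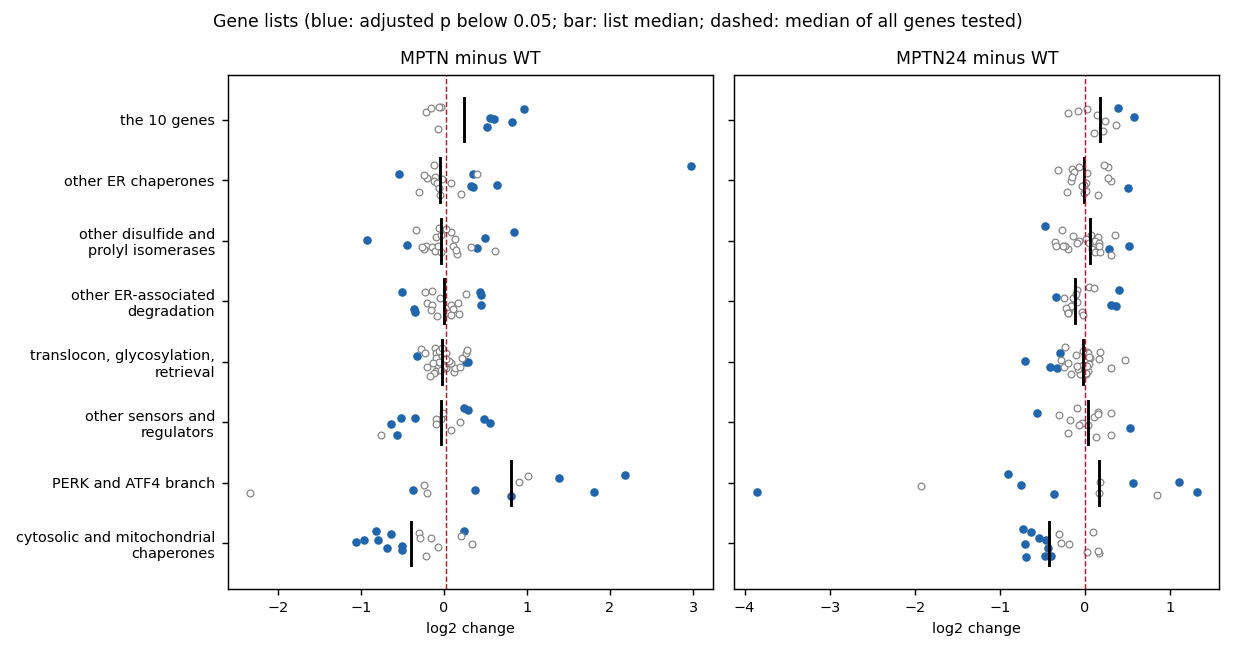
Log2 change (x axis) of each tested gene of 8 lists (rows) in MPTN minus WT (left) and MPTN24 minus WT (right). Blue points had an edgeR adjusted p below 0.05, black bars are list medians and the dashed line is the median of all tested genes. In the left panel the median bar is at 0.24 for the 10 genes, 0.81 for the PERK and ATF4 branch and -0.4 for the cytosolic and mitochondrial chaperones.

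Of 16 tested genes with ERSE in the promoter, 6 rose, 1 fell and 9 did not pass in MPTN against WT (37.5% rose and 6.25% fell, against 18.3% and 18.1% of all tested genes), with a median log2 change of 0.08. Of the 4 among the 10 genes, XBP1 rose, and HSPA5, HSP90B1 and CALR did not pass. Of 14 tested genes with ERSE-II, 4 rose and 4 fell (28.6% each), HERPUD1 among the rises, while SDF2L1 did not pass. Of 370 tested genes with the XBP1-type element, which none of the 10 holds, 61 rose (16.5%) and 94 fell (25.4%), with a median of -0.09. The first 2 of these lists overlap with the 10 genes, and a match in a promoter does not show that a factor is bound there.

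Over the 9 libraries, the genes most like XBP1 among 10455 with a symbol and at least 5 CPM on average were ADCK1 (Pearson's r = 0.992), GSTK1 (0.991), NUDT18 (0.989), NPC2 (0.987) and TAZ (0.987). All 5 had their highest mean in MPTN and their lowest in WT, for example NPC2, a carrier of cholesterol in lysosomes, at 335 CPM in MPTN, 297 CPM in MPTN24 and 246 CPM in WT. They were picked for likeness to XBP1 over these same libraries, so this order is not a separate result. Those most like HSPA5 were TSPAN3 (0.954), RBBP9 (0.908), NSF (0.902), CTTN (0.891) and C22orf46 (0.887). The group means of TSPAN3 were 96.1 CPM in MPTN, 99.2 CPM in MPTN24 and 94.9 CPM in WT.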

How the data were processed

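Libraries were prepared with the TruSeq RNA kit from Trizol-extracted RNA (1 µg each), per the labels' protocols. The build GRCh38 and the tools HISAT2, StringTie, edgeR, Trimmomatic, FastQC and CASAVA 1.8 are named, per the submitters' processing notes. Their order, their settings, the annotation release and the use of strand are not given in the sources used here. The authors deposited estimated counts, which were whole numbers, and a second table whose unit was inferred from its values as FPKM. No column was left out.

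Low genes were removed with filterByExpr (minimum count 10, total 15). The rest were scaled by TMM, and fitted in 1 quasi-likelihood model over 9 libraries (edgeR 4.0.16, R 4.3.3, robust). Calls used a Benjamini-Hochberg adjusted p below 0.05 over all 16990 tested genes. CPM are TMM-scaled, and intervals are at 95%. Alternatives were other scalings and filters, fits of 2 groups, a block on replicate number, leaving out single libraries, DESeq2 1.42.0, limma 3.58.1 (log2 FPKM with 0.1 or 1 added first), and counts divided by 4, in case 1 read pair stands for several counts. The fit was tested on simulated counts. No 2 libraries of a group had identical columns. Each pair differed by more than counting error, with a robust SD of the log2 ratio of 0.082 to 0.299 over 3747 abundant genes, against 0.043 to 0.051 from counting if 4 counts stand for 1 read pair.

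The members and lists were chosen with earlier results of these data known. All 10 members are named, and from each other list up to 3 called genes with the largest change in the list's main direction and 1 in the other. Where a list had as many rises as falls, and for ATF6, EIF2AK3, ATF3, PPP1R15A, ATF5, CD68, SDC1, BLOC1S1, SDF2, DDIT3, HSPA8, EDEM3, ERLEC1 and RTCB, genes were chosen after their values were seen. Genes most like HSPA5 and XBP1 were ranked by Pearson's r of log2(CPM + 1) over 9 libraries. Promoters are RefSeq windows on GRCh38.p14, matched for 10 of 10 members, and the XBP1 intron was read from GENCODE 29. A search of protein tails was planned and not run.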

Additional observations from a re-analysis of the deposited data

How the results depend on the processing

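With each library left out in turn, the members that rose numbered 4 to 5 in MPTN against WT, 1 to 5 in MPTN24 against WT and 1 to 3 in MPTN against MPTN24, and the members that fell 0, 0 and 0 to 2. The 2 falls, CALR and SDF2L1, appeared without WT 1 and when only MPTN and MPTN24 were fitted (2). Under limma, with 0.1 or 1 added to FPKM, rises numbered 1 and 1 at 24 h and 1 and 1 in MPTN against MPTN24. RLE factors, both other filters, DESeq2 and counts divided by 4 gave the main counts of members, and upper-quartile scaling gave 3 rises at 24 h. DNAJB9, HERPUD1, XBP1 and ERN1 kept their calls in MPTN against WT under all 19 alternatives, at log2 changes of 0.73 to 0.92, 0.46 to 0.74, 0.53 to 0.73 and 0.78 to 1.12, and EDEM1 under 18. Over all genes, falls in MPTN against WT numbered 3071, and 1867 and 1881 with limma. At 24 h, counts of all genes ranged from 1022 to 2286 rises and 935 to 2535 falls, and in MPTN against MPTN24 from 741 to 1880 and 569 to 1732. Under limma with 0.1 added, the median of all genes in MPTN against WT was 0.12. Of the list counts, falls of cytosolic chaperones ranged from 7 to 10 in MPTN against WT and 5 to 9 at 24 h, rises of the PERK branch from 5 to 6 in MPTN against WT, and rises of other endoplasmic reticulum chaperones from 2 to 7.

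Whether the replicate numbers pair the libraries cannot be decided from 3 libraries in each group. Same-numbered libraries correlated in their deviations at -0.27 to 0.25, over 0.1 in 4 of 9 pairs. Libraries with different numbers correlated at -0.29 to 0.3, highest for MPTN 1 with MPTN24 2. With a replicate block, members that rose numbered 5 in MPTN against WT, 2 at 24 h and 2 in MPTN against MPTN24, members that fell 0, and all genes 3157 and 3026, 1951 and 2036, and 1330 and 1173 (rises and falls).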
